A study of Drosophila melanogaster with 29 samples.

Results

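Voltage-gated sodium and calcium channels and the sodium leak channel set how a neuron turns a change in membrane voltage into an electrical or chemical signal. The genes examined were 10 genes of *Drosophila melanogaster* chosen by name for their roles, with earlier results of these data known. They encode pore subunits, auxiliary subunits and the complex of the sodium leak channel (NALCN in mammals). A row was found for 9 of the 10 genes among the 7602 genes of the deposited table. *Ca-beta*, which encodes the cytoplasmic beta subunit of calcium channels, had no row under the identifier that the symbol table gives it (FBgn0287724). As 49 identifiers of the table had no symbol, no level was assigned to *Ca-beta*, and nothing is said of its expression.

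The series profiles photoreceptor nuclei by RNA-seq and by chromatin assays, and only its 3 nuclear RNA libraries have values here. All came from male *w* flies, 10 days after eclosion, that carried UAS-GFP-Msp300KASH at attP2 and the rh1-GAL4 driver on chromosome 3 together with *ry*[506]. They had been reared under 12 h of light and 12 h of dark at 25 °C. The GFP fusion marks the nuclear envelope, and the driver rests on the promoter of the Rh1 rhodopsin gene, which is active in outer photoreceptors, so nuclei of other retinal cells are not its target. The labels give 1 RNA group and no RNA control. They do not say whether the 3 libraries came from separate fly cultures or how many flies each pooled, so the spread between them may be technical.

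The photoreceptor of the fly is a non-spiking neuron: light opens TRP channels, and the graded depolarization travels passively down a short axon to histamine-releasing terminals. Calcium entry through voltage-gated channels drives release there, while sodium channels carry action potentials in spiking neurons. The pore subunits of all these channels share a plan of 4 linked domains. Smaller auxiliary subunits govern their delivery to the membrane and their gating, and the leak channel needs its partner proteins UNC79 and UNC80.

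Summed over the 7602 genes of the table, the libraries held 3781302, 3051440 and 3769863 reads in replicates 1, 2 and 3. A level below is a normalized count, which is the number of reads over the library's size factor, and 1 read was worth 1.29, 1.49 and 1.32 normalized counts. All 10 photoreceptor markers examined were in the top 10% of genes. None of the 8 glial, 8 other neuronal and 5 muscle markers with a row was, and *wrapper* was the lowest of them, at 3.68 normalized counts. Above the table median were 3 of the glial, 5 of the other neuronal and 2 of the muscle markers. The highest were *nrv2* (glia) at 379, *VGlut* (other neurons) at 178 and *sls* (muscle) at 214. *tipE*, *na*, *unc79* and *unc80* were below *nrv2* as counts, and the part of other cells in their levels was not tested. Fewer nuclei of a cell type and less RNA per nucleus cannot be told apart in such libraries.

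The calcium channel genes *Ca-alpha1D*, *cac* and *stj* were the highest of the set, while *Ca-alpha1T* lay among the much lower sodium channel and leak channel genes. *Ca-alpha1D*, *cac* and *stj* were in the top 10% of genes both as counts and per kb of gene span. *para* and *Ca-alpha1T* were in the top 10% as counts only, and *tipE*, *na*, *unc79* and *unc80* on neither scale. In all, 5 of 9 genes were in the top 10% as counts, against 10.0% of all genes. Per kb of gene span, 3 of 9 were, again against 10.0% of all genes. All 9 exceeded the table median as counts, but 6 of 9 did per kb. The median of the 9 was 1050 normalized counts, beside 56.8 for the table, and 21.9 per kb beside 19.6. Together the 9 genes took 1.35% ± 0.012 (SD, n = 3) of the normalized counts summed over all genes of the table.

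Gene span is the length from the first to the last base of the gene in the Release 6 plus ISO1 MT annotation, the assembly that dm6 denotes, and it includes introns. Whether the authors counted reads over exons or over whole genes is not given in the sources used here. Both scales are therefore given, and the spans of the 9 genes ran from 5.29 kb (*tipE*) to 88.4 kb (*Ca-alpha1T*). Of the 9 genes, 4 are on the X chromosome, of which males carry a single copy: *para*, *cac*, *Ca-alpha1T* and *na*.

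**Figure D1:**
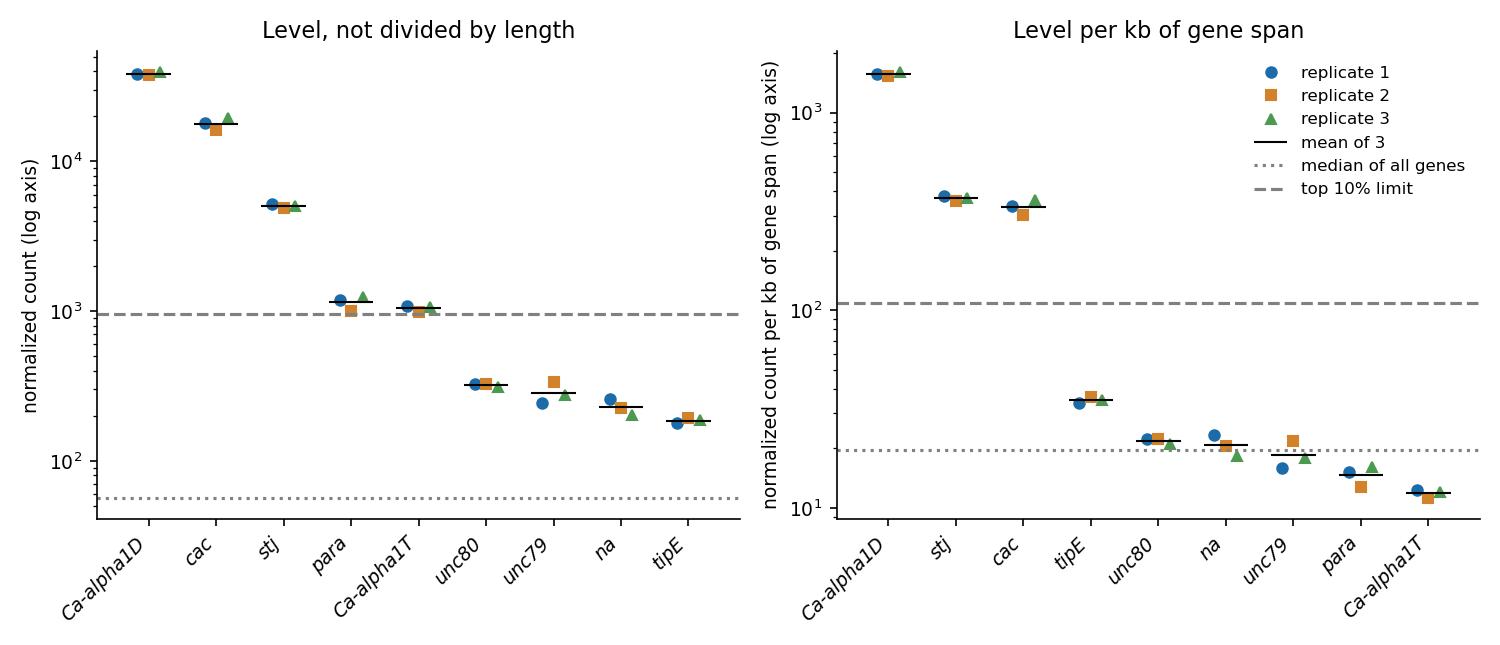
Levels of the 9 channel genes in each of the 3 libraries, as normalized counts (left) and per kb of gene span (right), on log axes and each ordered by its mean. Horizontal bars are means of 3, the dotted line is the median of all genes and the dashed line the limit of the top 10%. *Ca-alpha1D* was highest on both scales, and by its mean *para* stood above *unc80*, *unc79*, *na* and *tipE* as a count but below all 4 per kb.

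*Ca-alpha1D* (FBgn0001991; dm6 chr2L:16165831-16190540, 10 RefSeq transcripts) encodes the pore subunit of the L-type calcium channel, best known in flies from muscle and from neuronal cell bodies and dendrites. It had 38508, 37731 and 39600 normalized counts in replicates 1, 2 and 3. The libraries were close together, with a coefficient of variation of 2.43%, and the gene stood 12th of the 7602 genes. Per kb of gene span its level was 1563 ± 38.0 (SD, n = 3), 25th of the 7541 genes with a span. An antisense RNA gene, *asRNA:CR43806*, overlaps 871 of its bases and had no row, and the sources do not state whether counting used strand.

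*cac* (FBgn0263111; dm6 chrX:11931280-11985087, 18 RefSeq transcripts) encodes the pore subunit of the presynaptic calcium channel, the main route of calcium entry for transmitter release at fly synapses. Some of its alleles were first isolated as *nightblind A* for their defective electroretinogram. Its levels were 18056, 16234 and 19528 normalized counts in replicates 1, 2 and 3. Replicate 2 was lowest and replicate 3 highest, with a coefficient of variation of 9.20%. It stood 38th of all genes as a count and 182nd per kb, at 333 ± 30.7 (SD, n = 3) normalized counts per kb.

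Per kb of gene span, *Ca-alpha1D* exceeded *cac* by 4.71 ± 0.33-fold (SD, n = 3), and it was higher in 3 of 3 libraries. Not divided by length the ratio was 2.16 ± 0.15, in the same direction. The exact two-sided sign-flip permutation p was 0.25 for this ratio, the smallest that 3 libraries allow, so no ratio between genes could pass a threshold of 0.05. The planned ratio of *cac* to *Ca-beta* could not be formed. Below, 2 genes are called apart where the ratio has the same sign in 3 of 3 libraries and its mean log2 exceeds 2 SD, which *Ca-alpha1D* and *cac* met on both scales.

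*Ca-alpha1T* (FBgn0264386; dm6 chrX:6104085-6192483, 5 RefSeq transcripts) encodes the T-type pore subunit, which opens at more negative voltages than the other calcium channels. It had 1088, 995 and 1067 normalized counts in replicates 1, 2 and 3. This was the third and lowest of the calcium pore genes, and the libraries differed by at most 1.09-fold. It has the longest span of the set, and per kb it was the lowest of all 9 genes, at 11.9 ± 0.55 (SD, n = 3), percentile 36.6 of genes. *cac* exceeded it by 28.0 ± 1.8-fold per kb and by 17.1 ± 1.1-fold not divided by length, and both pairs of values were apart.

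*stj* (FBgn0261041; dm6 chr2R:13805794-13819571, 3 RefSeq transcripts) encodes straightjacket, the alpha2delta subunit that carries Cac channels to the presynaptic membrane. Levels were 5207, 4926 and 5078 normalized counts in replicates 1, 2 and 3. The spread was small, with a coefficient of variation of 2.77%. Per kb *stj* reached 368 ± 10.2 (SD, n = 3), 159th of genes and next to *cac*. The ratio of *stj* to *cac* per kb was 1.11 ± 0.086, above 1 in 3 of 3 libraries but within 2 SD on the log2 scale, so the order of these neighbours was not resolved. Not divided by length *cac* was higher, by 3.54 ± 0.28-fold, and the order of this pair depends on the length scale.

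*para* (FBgn0285944; dm6 chrX:16455027-16533096, 60 RefSeq transcripts) encodes the pore of the voltage-gated sodium channel that carries action potentials in the fly. It had 1182, 999 and 1253 normalized counts, from 919, 669 and 948 reads, in replicates 1, 2 and 3. The gene thus had reads in every library, at percentile 91.3 as a count and lowest in replicate 2. Per kb, at 14.7 ± 1.7 (SD, n = 3), it lay at percentile 41.9 of genes. *Cnx14D*, which lies within the *para* span, had no row.

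Against *cac*, *para* was lower by 22.8 ± 0.72-fold per kb and by 15.7 ± 0.50-fold not divided by length (SD, n = 3). The genes were apart on both scales, and the log2 ratio was the most even of the 9 ratios planned, with an SD of 0.045. Against *Ca-alpha1T*, its neighbour in level, *para* was 1.23 ± 0.096-fold higher per kb, which was apart, and 1.09 ± 0.085-fold higher as a count, which was not.

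Spiking neurons of other types express *para*, so their markers were summed beside it. The 8 other neuronal markers with a row (of 9 listed, which are transmitter synthesis and transport genes) summed to 751, 662 and 776 normalized counts in replicates 1, 2 and 3. Their sum was lowest in replicate 2, as *para* was. Of the 8 markers, 5 were lowest in that library, and *VGAT* and *DAT* were highest there. The 10 photoreceptor markers summed to 336730, 320344 and 334962 under the same size factors. That sum was lowest in replicate 2 as well, and 5 of the 10 markers were lowest there. *trpl*, *chp* and *Arr2* were highest there. Other scalings of these sums were not tested. None of the 8 other neuronal markers was at 0 in any library. Their means ran from 9.28 for *DAT* to 178 for *VGlut*, and *Tdc2* had no row. The part of such cells in the *para* level was not tested.

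*tipE* (FBgn0003710; dm6 chr3L:4188499-4193788, 2 RefSeq transcripts) encodes the first known auxiliary subunit of the Para channel, which raises its current in heterologous cells. Its levels of 179, 193 and 186 normalized counts in replicates 1, 2 and 3 were the lowest of the set as counts. The coefficient of variation of 3.74% was below the 8.58% that counting error alone gives at 129 to 141 reads. Its span is also the shortest, and per kb its level was 35.2 ± 1.3 (SD, n = 3), percentile 67.0. Per kb *tipE* exceeded *para* by 2.42 ± 0.37-fold, whereas not divided by length *para* exceeded *tipE* by 6.17 ± 0.86-fold, so their order turned with the length scale. *CG18675* overlaps 4470 of the 5290 bases of *tipE* and had a mean of 19.6 normalized counts. The sources do not state how reads in the shared bases were assigned, which limits the level of *tipE* and its ratios.

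The leak channel genes lay close together. *na* (FBgn0002917; dm6 chrX:14266367-14277416, 2 RefSeq transcripts) encodes narrow abdomen, the pore of the fly sodium leak channel, known for its role in clock neurons. It had 257, 227 and 202 normalized counts in replicates 1, 2 and 3, from 200, 152 and 153 reads. Replicate 1 was highest and replicate 3 lowest.

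*unc79* (FBgn0038693; dm6 chr3R:19230764-19246130, 5 RefSeq transcripts) encodes a large partner of the channel. It had 243, 335 and 274 normalized counts, with replicate 2 highest, the opposite of *para* and *cac*. Its neighbour *Polr2M* shares 69 bases with it and had a mean of 16.2 normalized counts.

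*unc80* (FBgn0039536; dm6 chr3R:27662439-27677099, 5 RefSeq transcripts), the other large partner, had 327, 327 and 309 normalized counts. Its libraries differed by at most 1.06-fold, the smallest range of the 3 leak channel genes.

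Per kb of gene span the 3 genes of the leak channel could not be ranked. Their means were 20.7 ± 2.5 for *na*, 18.5 ± 3.0 for *unc79* and 21.9 ± 0.69 for *unc80* (SD, n = 3), at percentiles 51.7, 48.5 and 53.5 of all genes. The ratio of *na* to *unc79* was 1.15 ± 0.28, of *na* to *unc80* 0.944 ± 0.091 and of *unc79* to *unc80* 0.843 ± 0.13, and none was apart. Not divided by length, *na* was 1.41 ± 0.13-fold lower than *unc80*, which was apart. The ratio of *na* to *para* per kb was 1.43 ± 0.25 and was not apart, while as a count *para* was 5.06 ± 0.99-fold higher.

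Per kb of gene span the order ran from *Ca-alpha1D* through *stj*, *cac*, *tipE*, *unc80*, *na*, *unc79* and *para* to *Ca-alpha1T*. The neighbours *stj* and *cac*, *unc80* and *na*, *na* and *unc79*, and *unc79* and *para* did not differ beyond their spread. *Ca-alpha1D* stood 4.25 ± 0.11-fold above *stj*, *cac* 9.50 ± 1.1-fold above *tipE* and *tipE* 1.61 ± 0.080-fold above *unc80*, all apart per kb. Not divided by length, *unc80* was instead 1.73 ± 0.088-fold above *tipE*, which was apart, so their order turned with the length scale. On that scale *para* was 4.14 ± 1.0-fold above *unc79*, also apart.

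**Figure D2:**
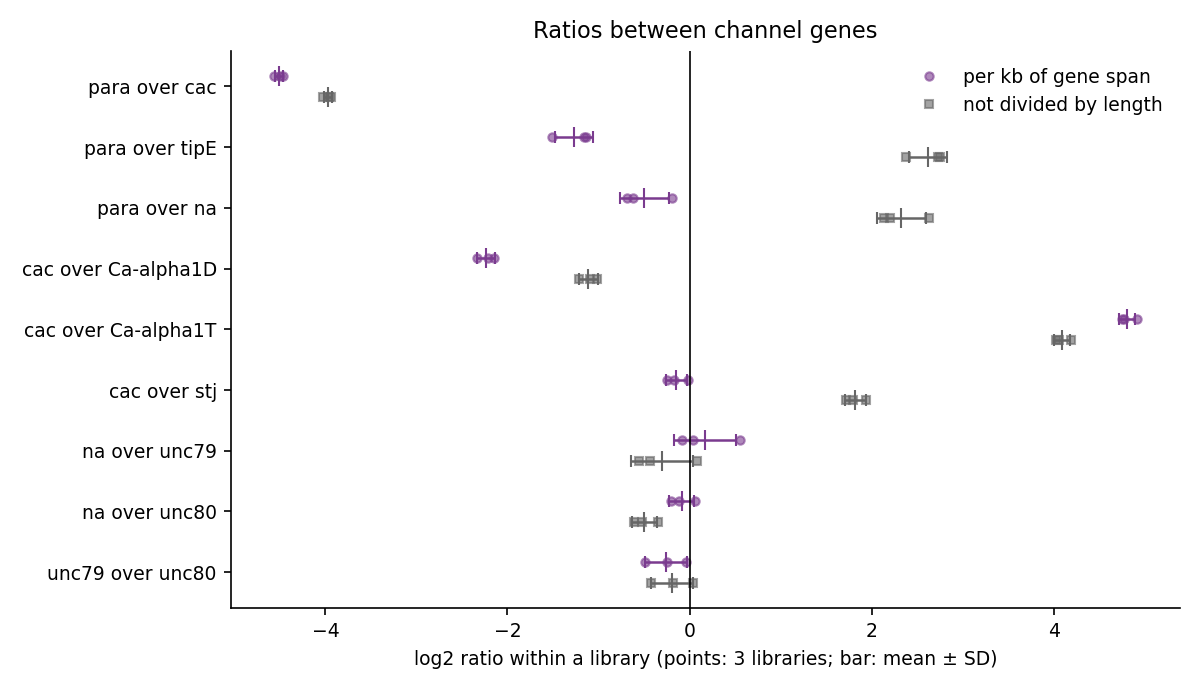
Log2 ratios of the 9 planned gene pairs within each library, per kb of gene span (purple circles) and not divided by length (grey squares); bars show the mean ± SD of 3 libraries. The ratio of *para* to *tipE* changed sign with the scale, from −1.27 to 2.62, while those of *cac* to *Ca-alpha1D* and to *Ca-alpha1T* kept theirs.

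The 5 pore genes were also set against each other as shares of their sum. *Ca-alpha1D* made up 65.5% ± 1.5 of their normalized counts, *cac* 30.4% ± 1.4, *para* 1.94% ± 0.14, *Ca-alpha1T* 1.78% ± 0.056 and *na* 0.389% ± 0.055 (SD, n = 3). Per kb of gene span the shares were 80.4% ± 0.97, 17.1% ± 0.97, 0.753% ± 0.061, 0.611% ± 0.019 and 1.07% ± 0.15. *Ca-alpha1D* and *cac* thus held nearly all of the pore subunit signal on both scales. These are shares of nuclear RNA, and neither protein nor current was measured.

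The 3 libraries were then compared for each gene with a chi-square test of its reads, given the library size factors. P-values were adjusted by the Benjamini-Hochberg method over all 6903 genes with a mean of at least 10 normalized counts. The test called 4 of the 9 channel genes at an adjusted p under 0.05, beside 9.76% of all genes tested. They were *cac* (adjusted p 7.51e-45), *Ca-alpha1D* (2.58e-06), *para* (0.000613) and *unc79* (0.0446). The test finds smaller differences in deeper genes. Of the 78 genes above 10000 normalized counts 94.9% were called, and *cac* and *Ca-alpha1D* are among them. From 1000 to 10000 it called 43.2% of 651 genes and 1 of 3 channel genes, and from 200 to 1000 14.4% of 1332 genes and 1 of 3. Measured as spread, *Ca-alpha1D* (2.43%) lay below and *cac* (9.20%) above the median coefficient of variation of 5.53% in their class.

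*cac* kept its call when any replicate was left out, with adjusted chi-square p of at most 4.31e-09. *para* lost it without replicate 2 (adjusted p 0.623, range over its alternatives 0.000174 to 0.623). *unc79* lost it without replicate 1 (0.207) and without replicate 2 (0.667), over a range of 0.00376 to 0.667. *Ca-alpha1D* lost it without replicate 3 (0.218, range 5.78e-07 to 0.218). Without replicate 2 the calls came to 2 of 9, beside 342 of 6858 genes.

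**Figure D3:**
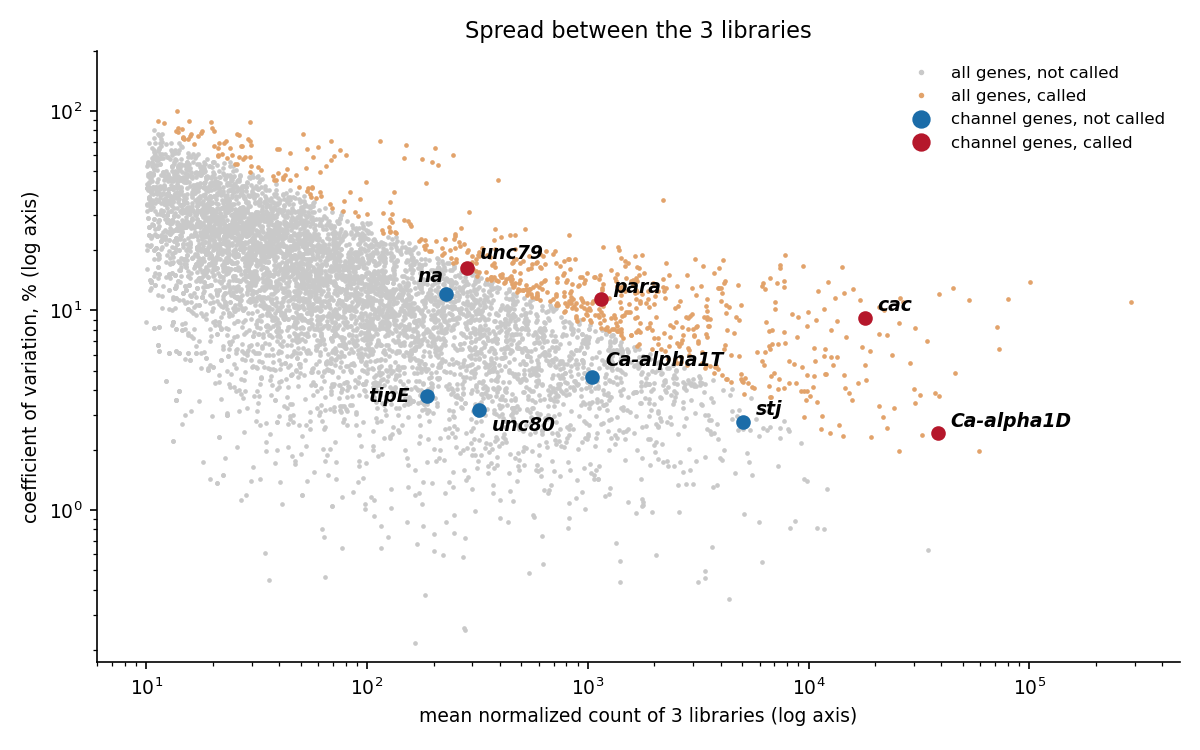
Coefficient of variation over 3 libraries against mean normalized count for all 6903 genes tested (small points; orange, called by the chi-square test) and for the 9 channel genes (large points; red, called), on log axes. *cac* and *para* lie at 9.20% and 11.4%, *Ca-alpha1D* and *stj* at 2.43% and 2.77%.

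Part of this spread depended on how libraries were scaled. Under the authors' size factors replicate 2 was lowest for 5 of the 9 genes, against 2 with libraries scaled to equal totals and 4 with trimmed mean scaling. *para* and *cac* were lowest in replicate 2 and highest in replicate 3 under all 3 scalings. *unc79* was highest in replicate 2 and lowest in replicate 1, and *na* highest in replicate 1 and lowest in replicate 3, again under all 3. *para* was not called with equal totals (adjusted chi-square p 0.141, range over its alternatives 0.000174 to 0.623). *Ca-alpha1D* was not called with trimmed mean scaling (0.102, range 5.78e-07 to 0.218), and with equal totals its highest library became replicate 2.

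**Figure D4:**
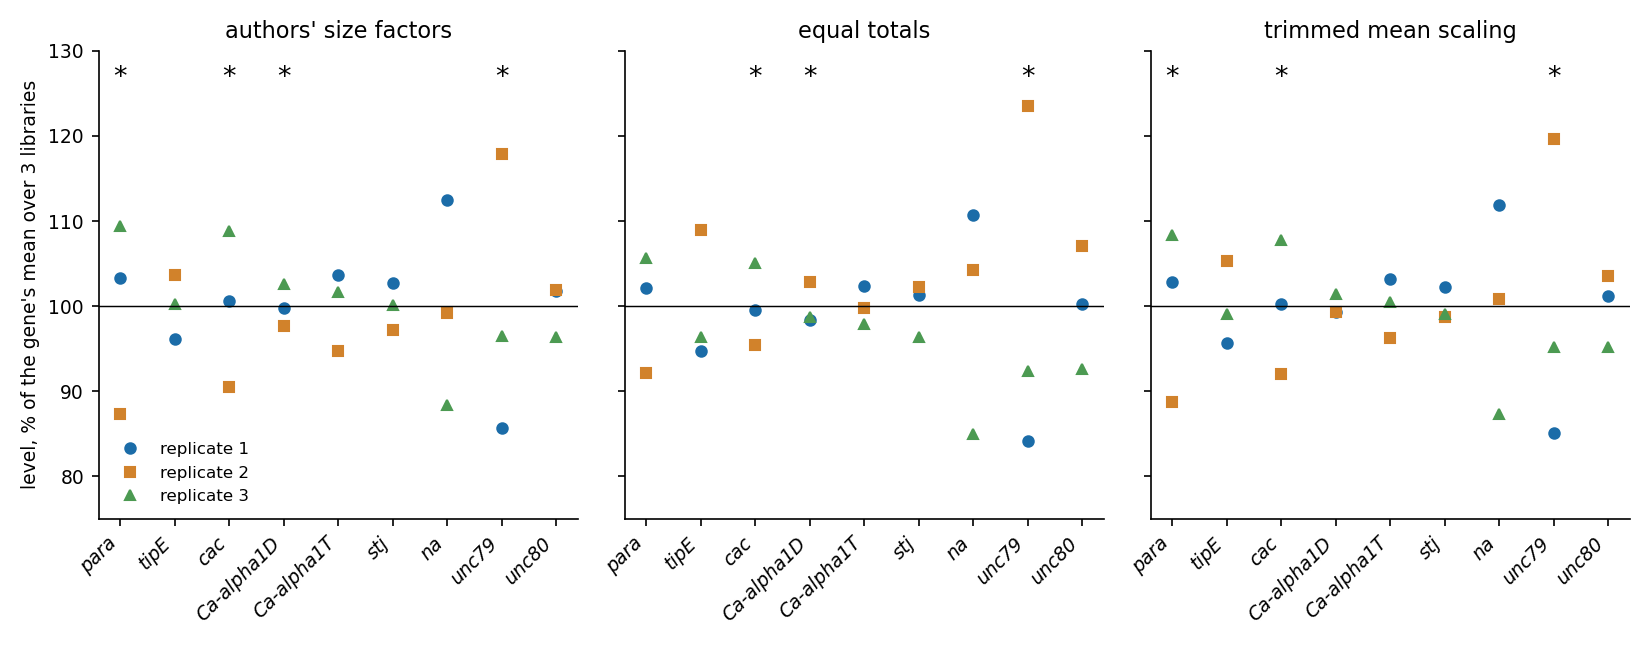
Level of each channel gene in each library as a percentage of its mean over 3 libraries, under the authors' size factors, equal totals and trimmed mean scaling. Asterisks mark genes called by the chi-square test. *cac* and *unc79* were called under each of the 3, *para* and *Ca-alpha1D* under 2 each.

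Other genes of the same machinery were taken as lists. Of 9 partners and regulators of the sodium channel, each had a row, 8 exceeded the table median, 5 were in the top 10% and 5 were called by the chi-square test, beside 9.76% of all genes tested and the higher shares of deep genes given above. The highest was *ps*, a splicing regulator, at 26815 ± 2954 normalized counts (SD, n = 3). The lowest was *Teh1*, a homolog of *tipE*, at 46.3 ± 1.3. Among the *tipE* homologs *Teh2* was highest as a count, with 2828, 2594 and 3116 normalized counts in replicates 1, 2 and 3. Per kb it exceeded *tipE* by 8.97 ± 0.98-fold, and not divided by length by 15.3 ± 1.7-fold, both apart. *Teh3*, whose span lies inside that of *Teh2*, had 534 ± 85.9 normalized counts (SD, n = 3) and came near *Teh2* per kb, at 264 ± 42.5 beside 315 ± 28.9. How the counting divided reads between these overlapping genes is not recorded.

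*NaCP60E*, which encodes a cation channel related to Para, had 981, 1022 and 1072 normalized counts in replicates 1, 2 and 3. This was within the spread of *para* as a count, with *para* 1.12 ± 0.12-fold as high, but per kb *NaCP60E* was 2.34 ± 0.27-fold higher, which was apart. Regulators known to act on *para* RNA in flies had rows too. *pum*, a translational repressor, had 6751 ± 248 normalized counts, *Adar*, an RNA editing enzyme, 4277 ± 342, and *mle*, an RNA helicase, 619 ± 14.9 (SD, n = 3).

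Each of the 10 calcium channel partners looked up had a row and a level above the median of all genes. Of these, 7 were in the top 10% and 7 were called by the chi-square test, again beside 9.76% of all genes tested and 43.2% to 94.9% of those above 1000 normalized counts. The highest was *unc-13*, a vesicle priming factor, at 53367 ± 5999 normalized counts, and the lowest *stac*, an adaptor of L-type channels, at 61.9 ± 5.8 (SD, n = 3). *brp*, the scaffold of the fly active zone, had 16777 ± 725. The other alpha2delta genes were *stol* at 4124 ± 264 and *Ca-Ma2d* at 739 ± 22.5, or 55.7 ± 3.6 and 73.5 ± 2.2 per kb, below the 368 of *stj*. *Mid1*, listed as the partner of the leak channel by its older symbol Nlf-1, had 486, 367 and 471 normalized counts in replicates 1, 2 and 3. It was called by the chi-square test (adjusted p 0.0189), beside 14.4% of genes from 200 to 1000 normalized counts. Its call was not tested with a replicate left out.

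Potassium channels counter depolarization in photoreceptors, and their genes were set beside the 9. Of 19 listed, 16 had a row, 11 were above the table median, 7 were in the top 10%, and the list ran from *Task7* at 10.7 to *Sh* at 101003 normalized counts. It took 4.06% ± 0.26 of the normalized counts of the table, against 1.35% ± 0.012 for the 9 sodium and calcium channel genes (SD, n = 3). *Sh* alone took 2.10% ± 0.20, and these shares were not divided by length. *Sh*, the Shaker channel, exceeded *Ca-alpha1D* by 2.61 ± 0.31-fold not divided by length, but per kb *Ca-alpha1D* was 2.17 ± 0.27-fold higher. Against *cac*, *Sh* was higher on both scales, by 2.17 ± 0.11-fold per kb and 5.61 ± 0.29-fold without the division.

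**Figure D5:**
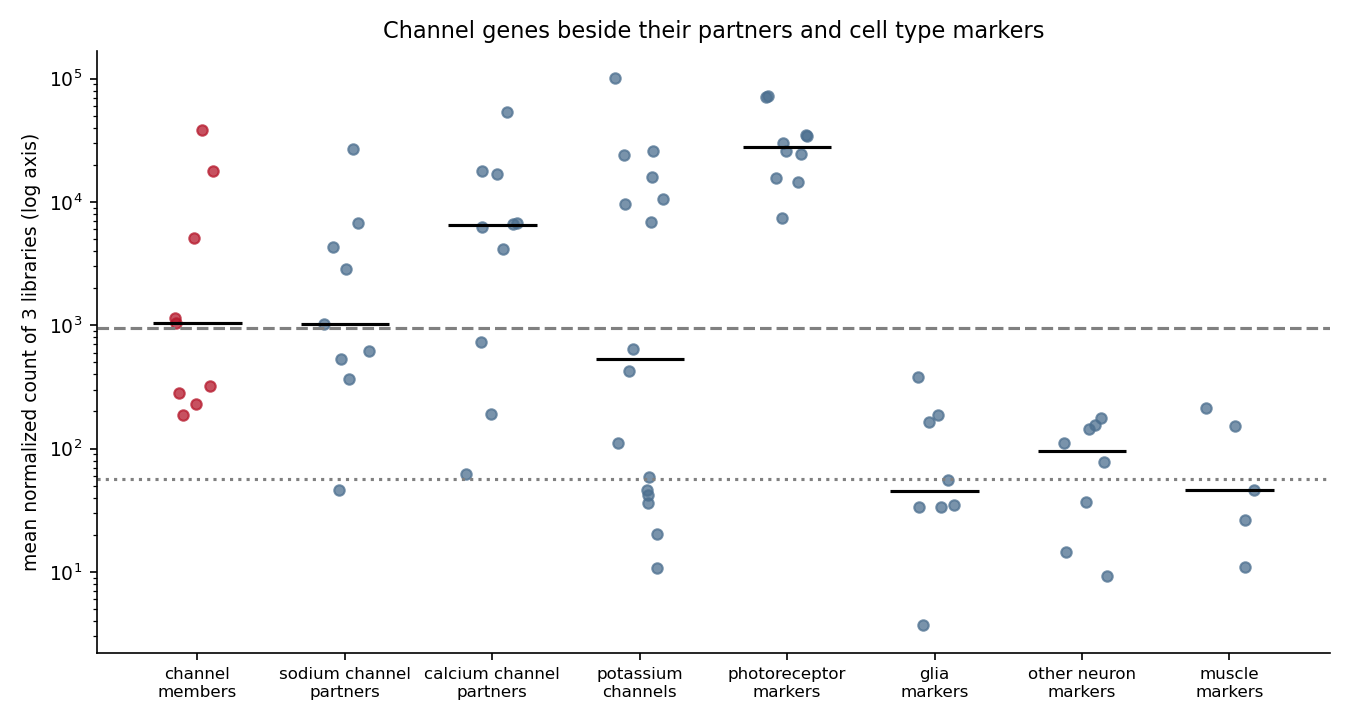
Mean normalized counts of the 9 channel genes (red) beside lists of partners, potassium channels and cell type markers (blue), on a log axis; bars are list medians, the dotted line the median of all genes (56.8) and the dashed line the limit of the top 10% (954). The channel genes ran from 186 to 38613, and no glial, other neuronal or muscle marker reached the top 10%.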

How the data were processed

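The authors deposited log2 values for 7602 genes in 3 nuclear RNA libraries, and 26 samples of chromatin assays were not analysed here. The table's name states normalization with DESeq2, and the submitters' processing notes name STAR, DESeq2 and the dm6 build, without roles. The counting program, annotation release and strandedness are not given in the sources used here. On the linear scale (2 to the power of the value, minus 1) 100% of 22806 values were whole multiples of 1 step per library (tolerance 0.001, relative to the read number), and reads were recovered by that step. Reads can include PCR copies, so the chi-square test covers counting error only. The division by coding length that had been planned could not be made without coding lengths, and gene span, known for 7541 genes, took its place. Symbols matched 7553 genes. Levels are means ± SD over 3 libraries. Ratios were tested by an exact sign-flip permutation test.

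Libraries of 6903 genes were simulated with counting error alone. On them the chi-square test recovered 187 of 200 genes raised 3-fold in 1 library, with 9 false calls. The channel genes differed between libraries by at most 1.38-fold, and the simulation did not cover differences that small. The genes named are the members, the highest and lowest gene of each list and genes fixed by name, and *Teh2*, *Teh3*, *pum*, *Adar*, *mle*, *stol*, *Ca-Ma2d* and the overlapping genes were added after their values were seen. The members and lists were chosen with earlier results of these data known. Alternatives covered the pseudocount, scaling, minimum mean, threshold, length and left-out replicates. Computation used Python 3.11.15, numpy 2.4.6, scipy 1.17.1, pandas 2.3.3 and matplotlib 3.10.9.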

Additional observations from a re-analysis of the deposited data

How the results depend on the processing

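Ratios between genes depended most on length. Without division by length the log2 ratio went from −4.51 to −3.97 for *para* over *cac*, −1.27 to 2.62 for *para* over *tipE*, −0.50 to 2.32 for *para* over *na*, −2.23 to −1.11 for *cac* over *Ca-alpha1D*, 4.81 to 4.09 for *cac* over *Ca-alpha1T*, −0.15 to 1.82 for *cac* over *stj*, 0.17 to −0.30 for *na* over *unc79* and −0.087 to −0.49 for *na* over *unc80*. The alternative itself removes the span, so long genes gain. Genes in the top 10% went from 5 to 3 per kb, and the channel genes' median log2 level above the table's from 4.20 to 0.18. With low genes, under a mean of 10, removed, these were 4 and 3.88. Calls of spread were 4 and ran from 2 to 3 with a replicate left out. Over all genes they fell from 674 to 448 at a threshold of 0.01, and were 681, 342 and 243 without replicates 1, 2 and 3 (the cause was not tested). Depth limits *tipE*, *na*, *unc79* and *unc80*, with 129 to 254 reads a library. No paired analysis was possible because there is only 1 group of RNA libraries.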
